A study of Homo sapiens with 24 samples.

Results

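The genes described here are 10 components of the pathway that runs from the cytokines IL6 and LIF to the transcription factor STAT3. They are the ligands IL6 and LIF, the receptor chains IL6R, IL6ST, OSMR, and LIFR, the Janus kinases JAK1 and JAK2, STAT3 itself, and its feedback inhibitor SOCS3. They were chosen by name, not by a measured value, but with earlier results of these data known. All 10 were among the 18756 protein-coding genes, of 20090 annotated, with at least 1 peak in their window. The window of a gene is its body and 50 kb on either side in the human genome build hg19, and the windows of the 10 genes, 103.3 to 334.5 kb long, do not overlap each other.

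The study mapped where the calcium-binding proteins S100A8 and S100A9, which together form a secreted inflammatory cytokine, associate with chromatin during cellular transformation. Chromatin immunoprecipitation sequencing (ChIP-seq) with an antibody to the Flag epitope was performed in MCF10A, a nontumorigenic human mammary epithelial line, expressing ER-Src, the v-Src oncogene fused to the ligand-binding domain of the estrogen receptor. Cells received 1 μM 4-hydroxytamoxifen (TAM), which activates Src and drives transformation, or ethanol (EtOH) as the vehicle, for 24 hours. The peak lists of 11 libraries were used.

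The S100A8-Flag line contributed 2 EtOH and 3 TAM libraries, and the S100A9-Flag line contributed 3 EtOH and 3 TAM libraries. Both lines carry ER-Src together with a stably introduced retroviral S100A8-Flag or S100A9-Flag, so that the controls differ from the transformed cells in TAM alone and the signal is that of a tagged, ectopic protein. Protein-protein cross-links were made before the formaldehyde cross-link, so a peak marks a region to which the protein was attached directly or through other proteins. The labels give replicate numbers, and the authors describe the replicates as biological. They are treated here as replicates of 1 line per protein. RNA and protein levels of the 10 genes were not measured by these lists, and the identity of the cells was not checked with them. In a pool of cells, a protein bound in more cells and one bound more often per cell cannot be told apart.

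Cytokines of the IL6 family bind a ligand-specific chain (IL6R for IL6, LIFR for LIF, and OSMR or LIFR for oncostatin M) and signal through the shared chain IL6ST, also called gp130. The bound receptor brings JAK kinases together, which phosphorylate STAT3, and phosphorylated STAT3 dimers enter the nucleus and switch on target genes. One of those targets is SOCS3, which binds the receptor and kinase and shuts the signal down. In the ER-Src model, autocrine IL6 and STAT3 activation are known parts of an inflammatory loop that accompanies transformation.

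A peak was counted when its q value was 1e-07 or less, and at that threshold the EtOH lists held 1853 to 4609 peaks and the TAM lists 21518 to 40735. The mean list was 7.25 times longer in TAM. Numbers of reads are not given in the lists, so the depth of the libraries is unknown, and a longer list from deeper sequencing cannot be told apart from one with more binding. For this reason, the counts were tested both as they stand and per 10000 peaks of the library. The strength of a peak is given as its fold enrichment at the summit over the chromatin input of the same sample. Peaks with a q above the threshold are called weaker peaks below.

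The windows of the 10 genes held more S100A8 and S100A9 peaks in TAM than in EtOH. Summed over the 10 windows, there were 7.4 ± 3.21 peaks in EtOH (SD, n = 5 libraries) and 52.5 ± 11.3 in TAM (SD, n = 6). In an exact permutation test of the libraries within each protein (two-sided, Benjamini-Hochberg adjustment over all 18756 genes), 8 of the 10 genes rose: LIF, IL6R, OSMR, LIFR, JAK1, JAK2, STAT3, and SOCS3. Among all genes tested, 65.3% were called higher, so that 8 of 10 is read against that background, and 0 genes were called lower. The groups did not overlap, with the lowest TAM library above the highest EtOH library, at IL6R, LIFR, STAT3, and SOCS3, which is 4 of 10 beside 38.8% of all genes. With 1853 peaks per library, 0 of the 10 genes were called, and without either of the 2 S100A8 EtOH libraries 0, when the smallest p possible was 0.025. With the gene body alone, 0 of 13968 genes passed the adjustment, and the difference was 5.25 peaks at IL6R and 1.42 at JAK2, close to those with flanks, but 0.667 at both SOCS3 and LIFR. The median difference was 3.62 peaks per window for the 10 genes and 2.33 for all genes.

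Relative to the length of the lists, the 10 windows differed between treatments by less than the spread of the libraries. Together they held 19.1 ± 4.28 of every 10000 library peaks in EtOH (SD, n = 5) and 19.3 ± 3.13 in TAM (SD, n = 6). The mean share was higher in TAM at 7 of the 10 genes, beside 55.6% of all genes, and lower at 3, and the median difference was 0.09 peaks per 10000, beside 0.0775 for all genes. In the exact permutation test, 0 of the 10 genes reached an unadjusted p of 0.05, beside 21.9% of all genes in either direction. The smallest adjusted p over all genes was 0.086, so no gene passed. One peak was worth 2.17 to 5.40 per 10000 in the EtOH lists and 0.245 to 0.465 in the TAM lists, which makes the EtOH shares coarse. When the 1853 peaks with the lowest q were taken from each library, the 10 windows held 3 to 7 of them in the EtOH libraries and 4 to 7 in the TAM libraries.

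**Figure D1:**
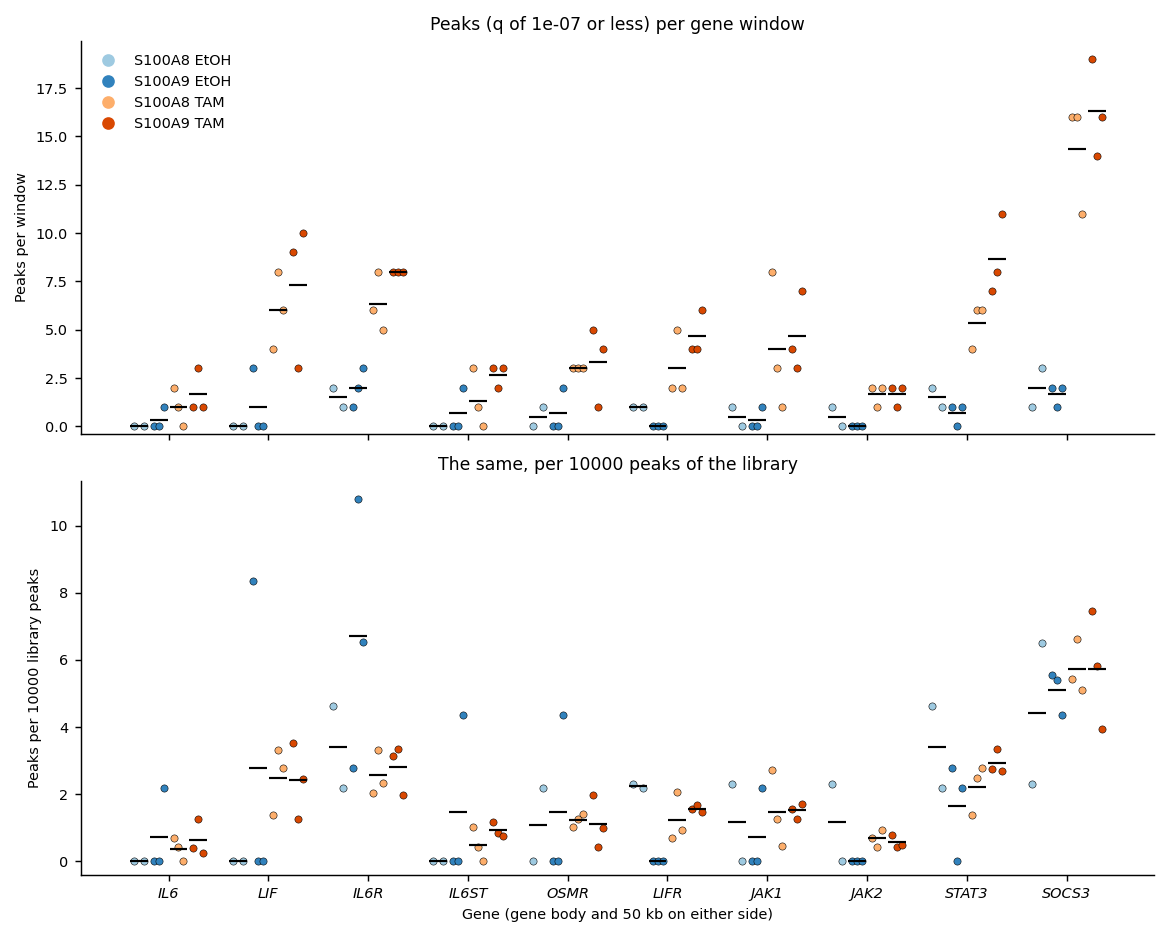
Peaks with q of 1e-07 or less per gene window (top, number of peaks) and per 10000 peaks of the library (bottom), for each of the 11 libraries. Each point is 1 library, colored by protein and treatment, and the bar is the group mean. SOCS3 stands at 11 to 19 peaks in the TAM libraries and 1 to 3 in the EtOH libraries, whereas in the lower panel the EtOH and TAM points of SOCS3 overlap.

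The ligand IL6 (chr7:22765503-22771621, plus strand), the cytokine that gives the pathway its name, had few peaks. Its window held 0 peaks in both S100A8 EtOH libraries, 0, 0, and 1 in the S100A9 EtOH libraries, 2, 1, and 0 in the S100A8 TAM libraries, and 1, 3, and 1 in the S100A9 TAM libraries. The groups overlapped, and the difference of 1.17 peaks did not pass the test (adjusted p = 0.116, exact permutation test). At the IL6 promoter, defined as 1500 bp upstream to 250 bp downstream of a transcription start site (TSS), a peak was called in 1 of 5 EtOH and 2 of 6 TAM libraries. The upstream peaks had their summits 529 bp (S100A9 EtOH replicate 3), 621 bp (S100A8 TAM replicate 1), and 595 bp (S100A9 TAM replicate 2) before the nearest annotated start. The last of these libraries had another called peak 5 bp after a different annotated start. No 2 replicates of a condition shared a called peak, so that IL6 had no confident promoter site. Weaker promoter peaks were listed in S100A8 TAM replicate 3 at 4.42-fold and in S100A9 TAM replicate 1 at 5.11-fold. S100A9 TAM replicate 3 had weaker ones of 4.29- and 3.72-fold, and the EtOH lists had none.

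A confident site was a region with peaks in at least 2 replicates of a condition, and the sites of the 4 conditions were merged into 30322 union sites. The IL6 window held 1 of these, at chr7:22770982-22771214, in a coding exon 4.3 kb downstream of the start. It was called in 5 TAM libraries, at 6.22- and 6.57-fold enrichment over input in S100A8 TAM replicates 1 and 2 and at 6.11-, 8.11-, and 5.55-fold in the 3 S100A9 TAM libraries. None of the EtOH lists had a peak there, even at the weaker q values that they include, nor did that of S100A8 TAM replicate 3. The exon sequence around its summit (hg19, plus strand as for all sequences here, without the untranslated bases that follow) is shown because it is the only confident site of the window. Of the 8 transcription factor motifs searched, which are spelled out with the motif results, it holds only the loose one of C/EBP, near the end of the stretch printed. Matches to that motif are left in lower case here and in the sequences that follow.
IL6 exon site, chr7:22771016-22771189: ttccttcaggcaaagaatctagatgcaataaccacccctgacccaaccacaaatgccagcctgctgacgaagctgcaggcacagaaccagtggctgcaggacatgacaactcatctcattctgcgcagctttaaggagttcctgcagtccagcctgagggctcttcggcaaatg

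LIF (chr22:30636442-30642748, minus strand), a sister cytokine that signals through LIFR and IL6ST, had a window of higher counts. It held 0 peaks in both S100A8 EtOH libraries, 3, 0, and 0 in the S100A9 EtOH libraries, 4, 8, and 6 in the S100A8 TAM libraries, and 9, 3, and 10 in the S100A9 TAM libraries. S100A9 EtOH replicate 1 equaled the lowest TAM library, so the groups touched, and the rise from 0.6 ± 1.34 (SD, n = 5) to 6.67 ± 2.80 (SD, n = 6) passed the exact permutation test (adjusted p = 0.0365). At the LIF promoter, that same EtOH library had the only call of any library, 83 bp downstream of a start at 8.03-fold. In contrast, the 9 confident sites of the window all lay outside the gene body, and counting the gene body alone left a difference of −0.167 peaks.

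Of the 9 sites, 5 stood 34.0 to 50.4 kb downstream of LIF, where no canonical protein-coding transcript is annotated. Of these, that at 36.3 kb was called in 5 TAM libraries at 6.57- to 10.5-fold, and that at 39.6 kb was also called in S100A9 EtOH replicate 1 at 7.36-fold. Another 3 were nearer to neighboring genes: 2 at CASTOR1 and 1 within OSM, which encodes oncostatin M and is itself a ligand of the family.

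IL6R (chr1:154377669-154441926, plus strand), the chain that binds IL6, had peaks in every library. There were 2 and 1 in the S100A8 EtOH libraries, 1, 2, and 3 in the S100A9 EtOH libraries, 6, 8, and 5 in the S100A8 TAM libraries, and 8 in each of the S100A9 TAM libraries. All TAM libraries exceeded all EtOH libraries, and the rise from 1.8 ± 0.837 (SD, n = 5) to 7.17 ± 1.33 (SD, n = 6) passed the exact permutation test (adjusted p = 0.0226). The share of peaks went the other way, 5.38 ± 3.47 per 10000 in EtOH and 2.69 ± 0.647 in TAM, and this difference did not pass (p = 0.12, unadjusted, exact permutation test).

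The 8 confident sites of IL6R all lay inside the gene, from the promoter to the third intron. At the promoter site (chr1:154377556-154377974, summit 8 bp upstream of the start), the folds in TAM were 8.95, 9.91, and 6.58 for S100A8 and 16.4, 12.8, and 10.5 for S100A9. Of the EtOH libraries, S100A9 replicate 3 was called there at 12.8-fold, and the other 4 had weaker peaks with folds of 4.26 to 5.87. The site that was called most widely among all 56 sites of the 10 windows lay in the first intron, 13.2 kb downstream of the start (chr1:154390594-154391338). It was called in 10 of the 11 libraries, at 12.5- and 8.59-fold in S100A8 EtOH and at 9.26- and 5.67-fold in S100A9 EtOH replicates 2 and 3. In TAM, it had folds of 5.67, 7.88, and 11.3 for S100A8 and 11.6, 14.0, and 13.3 for S100A9, a range that overlaps that of EtOH. The site 14.4 kb downstream, in the same intron, was called in 2 EtOH and 4 TAM libraries.

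A match to the AP-1 motif TGACTCA, on either strand and within 100 bp of the summit, was found at 6 of the 8 IL6R sites. The intron site just described and that 28.0 kb downstream, which falls 1.3 kb before an internal start of IL6R, are shown with this motif in capitals, 21 and 18 bp from their summits.
IL6R intron site, 13.2 kb, chr1:154390926-154391126: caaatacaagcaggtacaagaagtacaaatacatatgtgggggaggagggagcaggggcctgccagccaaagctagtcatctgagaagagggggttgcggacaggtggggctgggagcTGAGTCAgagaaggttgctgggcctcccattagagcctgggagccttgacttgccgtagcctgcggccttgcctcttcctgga
IL6R intron site, 28.0 kb, chr1:154405723-154405923: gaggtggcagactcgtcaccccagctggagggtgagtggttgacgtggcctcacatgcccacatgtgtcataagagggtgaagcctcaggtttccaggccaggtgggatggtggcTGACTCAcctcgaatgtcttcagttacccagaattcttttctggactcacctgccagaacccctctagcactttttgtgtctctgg

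IL6ST (chr5:55230923-55290850, minus strand), the signaling chain common to the family, had 0 peaks in both S100A8 EtOH libraries and 0, 0, and 2 in those of S100A9. In TAM, it had 3, 1, and 0 for S100A8 and 3, 2, and 3 for S100A9. The groups overlapped, and the difference of 1.67 peaks did not pass the exact permutation test (adjusted p = 0.0805). The promoter site (chr5:55290403-55291413, summit 5 bp upstream of a start) was called in S100A9 EtOH replicate 3 at 11.7-fold and in 4 TAM libraries at 7.36- to 10.5-fold. Both other sites of its window, 8.4 kb upstream of the start and 91.4 kb downstream, were called only in S100A9 TAM replicates 1 and 3, at 7.0- to 8.62-fold. The latter lies in an intron of the neighboring receptor gene IL31RA.

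OSMR (chr5:38845960-38945698, plus strand), which pairs with IL6ST to form an oncostatin M receptor, carried the site with the highest folds of the 56. Its window held 0 and 1 peaks in S100A8 EtOH, 0, 0, and 2 in S100A9 EtOH, 3 in each of the S100A8 TAM libraries, and 5, 1, and 4 in S100A9 TAM. The groups overlapped through S100A9 TAM replicate 2, and the rise from 0.6 ± 0.894 (SD, n = 5) to 3.17 ± 1.33 (SD, n = 6) passed the exact permutation test (adjusted p = 0.0365).

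The OSMR promoter site (chr5:38845581-38846446, summit 36 bp downstream of a start) reached 28.3-, 16.4-, and 23.7-fold enrichment in S100A8 TAM and 17.7-, 24.8-, and 16.9-fold in S100A9 TAM. Of the EtOH libraries, S100A9 replicate 3 was called there at 11-fold. Weaker peaks of 6.91- and 3.27-fold were listed in S100A8 EtOH replicate 2 and S100A9 EtOH replicate 1, and none in the other 2. Every TAM library thus stood above the strongest EtOH library. The site was confident in TAM alone, so its selection favors that order, which was not counted over all union sites. Of the union sites, 98.7% were called in a larger share of TAM than of EtOH libraries. By the mean percentile of its fold in the 6 TAM libraries, 99.5, the site ranked first of the 4326 union sites called in all 6. By the mean percentile of its q value, it ranked 6. Among the 1853 peaks with the lowest q of each library, the OSMR promoter was present in all 6 TAM lists and in 1 of the 5 EtOH lists (p = 0.04, unadjusted, adjusted p = 1.0, exact permutation test). Shown are the 121 bases of the site that end just before the earliest annotated start, since the summit itself lies in untranslated sequence. None of the motifs searched was found in these bases. A match to the loose C/EBP motif, TTGCAAAA, lies 48 bp from the summit, outside the bases shown. Both further sites named for OSMR were upstream and weaker. That at 36.0 kb was called in S100A8 EtOH replicate 2 at 9.08-fold and in 3 TAM libraries at 6.48- to 12.7-fold, and that at 15.4 kb in 3 TAM libraries at 6.47- to 8.42-fold.
OSMR promoter, chr5:38845839-38845959: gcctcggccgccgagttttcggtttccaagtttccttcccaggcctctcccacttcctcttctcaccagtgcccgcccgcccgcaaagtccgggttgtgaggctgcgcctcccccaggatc

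For LIFR (chr5:38474770-38608456, minus strand), the counts were 1 and 1 in S100A8 EtOH, 0 in each S100A9 EtOH library, 2, 5, and 2 in S100A8 TAM, and 4, 4, and 6 in S100A9 TAM. The groups did not overlap, and the rise from 0.4 ± 0.548 (SD, n = 5) to 3.83 ± 1.60 (SD, n = 6) passed the exact permutation test (adjusted p = 0.0226). LIFR encodes the chain that binds LIF. Its promoter site (chr5:38556857-38557391, 525 bp upstream of the canonical start) was the only one of the 8 promoter sites called in both S100A8 EtOH libraries, at 9.85- and 8.08-fold. In TAM, it was called in S100A8 replicate 1 at 11.4-fold and in the 3 S100A9 libraries at 9.71-, 7.84-, and 7.12-fold. The other 2 confident sites lay beyond the 3′ end of the gene, 88.2 and 92.3 kb from its start and nearer to EGFLAM, and were called in 3 and 4 TAM libraries and in no EtOH library.

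Both kinases rose in the number of peaks. JAK1 (chr1:65298906-65533437, minus strand) had 1 and 0 peaks in S100A8 EtOH, 0, 0, and 1 in S100A9 EtOH, 8, 3, and 1 in S100A8 TAM, and 4, 3, and 7 in S100A9 TAM (adjusted p = 0.0365, exact permutation test). One TAM library, S100A8 replicate 3, was no higher than the highest EtOH libraries. The JAK1 promoters were called in only 1 library, S100A8 TAM replicate 1. Its site of widest calling (chr1:65468233-65468940), 36.2 kb upstream of the canonical start, was called in S100A9 EtOH replicate 3 at 8.19-fold and in 5 TAM libraries at 7.16- to 11-fold. A second site (chr1:65545764-65545960), 12447 bp upstream of the nearest annotated start, was called in 5 TAM libraries at 6.24- to 16.5-fold and in no EtOH library.

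JAK2 (chr9:4984390-5129948, plus strand), the other receptor-associated kinase, had 1 and 0 peaks in S100A8 EtOH, 0 in each S100A9 EtOH library, 2, 1, and 2 in S100A8 TAM, and 2, 1, and 2 in S100A9 TAM (adjusted p = 0.0365, exact permutation test). Its only confident site was at the promoter, where 1 site (chr9:4984400-4985616, summit 34 bp upstream of the start) was called in 6 of 6 TAM libraries. Its folds there were 12, 11.6, and 8.97 in S100A8 TAM and 12.3, 11, and 14.7 in S100A9 TAM. S100A8 EtOH replicate 1 was called at 8.37-fold, and the other 4 EtOH libraries had weaker peaks of 5.46 to 7.35. At 0.679 peaks per 100 kb in TAM, the JAK2 window was sparse (percentile 18.1 of all genes), so that 1 promoter site stood in a large gene with few other peaks. The sequence around its summit, up to the untranslated bases, is shown beside that of OSMR. None of the motifs searched was found in the bases shown or within 100 bp of the summit.
JAK2 promoter, chr9:4985174-4985271: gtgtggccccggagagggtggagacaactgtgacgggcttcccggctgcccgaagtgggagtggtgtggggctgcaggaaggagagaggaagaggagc

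STAT3 (chr17:40465342-40540558, minus strand), the transcription factor on which the pathway converges, had 2 and 1 peaks in S100A8 EtOH, 1, 0, and 1 in S100A9 EtOH, 4, 6, and 6 in S100A8 TAM, and 7, 8, and 11 in S100A9 TAM. The groups did not overlap, and the rise from 1.0 ± 0.707 (SD, n = 5) to 7.0 ± 2.37 (SD, n = 6) passed the exact permutation test (adjusted p = 0.0226). Its share of the library peaks was 2.35 ± 1.65 per 10000 in EtOH and 2.57 ± 0.655 in TAM, which differ by less than the spread.

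The STAT3 promoter site (chr17:40540392-40541089, summit 211 bp upstream of a start) was called in 3 EtOH libraries, at 8.74-fold in S100A8 replicate 1 and at 10.3- and 7.01-fold in S100A9 replicates 1 and 3. In TAM, the folds were 11, 11, and 19.1 for S100A8 and 12.3, 15.9, and 8.07 for S100A9, so the groups overlapped at S100A9 TAM replicate 3. Both remaining EtOH libraries had weaker peaks there, of 6.88- and 5.98-fold. This is the only one of the 56 sites with a match to the CREB motif TGACGTCA, 96 bp from the summit, shown in capitals. Of the other 8 sites in the window, 5 lay within STAT3 and 3 were at or in CAVIN1, the next gene upstream, where the sites 35.0 and 17.8 kb from the STAT3 start were each called in 4 TAM libraries and in no EtOH library.
STAT3 promoter, chr17:40540669-40540869: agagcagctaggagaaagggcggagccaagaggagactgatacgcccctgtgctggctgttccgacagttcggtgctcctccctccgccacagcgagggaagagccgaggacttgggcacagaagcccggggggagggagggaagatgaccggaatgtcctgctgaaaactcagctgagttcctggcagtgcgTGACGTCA

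SOCS3 (chr17:76352859-76356158, minus strand), the inhibitor, had the highest counts of the 10 genes. Its window held 1 and 3 peaks in S100A8 EtOH and 2, 1, and 2 in S100A9 EtOH. In TAM, it held 16, 16, and 11 for S100A8 and 19, 14, and 16 for S100A9. The groups were far apart, and the rise from 1.8 ± 0.837 (SD, n = 5) to 15.3 ± 2.66 (SD, n = 6) passed the exact permutation test (adjusted p = 0.0226). Per 100 kb, this was 14.8 peaks in TAM, at percentile 99.9 of all genes, where the median gene had 1.82, and 1.74 in EtOH, at percentile 97.1. The SOCS3 share, 4.83 ± 1.60 per 10000 in EtOH and 5.73 ± 1.23 in TAM, did not differ beyond the spread (p = 0.33, unadjusted, exact permutation test).

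Within that window, the peaks of the TAM libraries formed an array on the 3′ side of the gene. Between 8 and 11 peaks per TAM library lay beyond the 3′ end, 0 or 1 in the gene body, 1 to 3 within 10 kb upstream, and 1 to 5 farther upstream, toward and in PGS1. Of the 14 confident sites, 11 were downstream of the start, from 3.9 to 45.7 kb, where no canonical protein-coding transcript is annotated. The outermost site (chr17:76309942-76310700, 45.7 kb) was called in both S100A8 EtOH libraries at 9.80- and 8.84-fold and in all TAM libraries, at 15.2-, 16.7-, and 13.9-fold for S100A8 and 16.6-, 12.2-, and 8.73-fold for S100A9. By mean percentile in TAM, 91.4, it ranked 68 of the 4326 sites called in all 6 TAM libraries. The site 8.4 kb downstream (chr17:76347450-76348210) was called in S100A9 EtOH replicates 1 and 3, at 10.2- and 6.36-fold, and in all TAM libraries, at 5.36- to 13.7-fold. That 17.6 kb downstream (chr17:76337925-76339379) was called in all TAM libraries, at 7.71- to 10.6-fold, and in none of EtOH, where 4 libraries had weaker peaks of 5.21- to 8.13-fold. Folds at that site thus overlapped between the treatments although the calls did not.

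**Figure D2:**
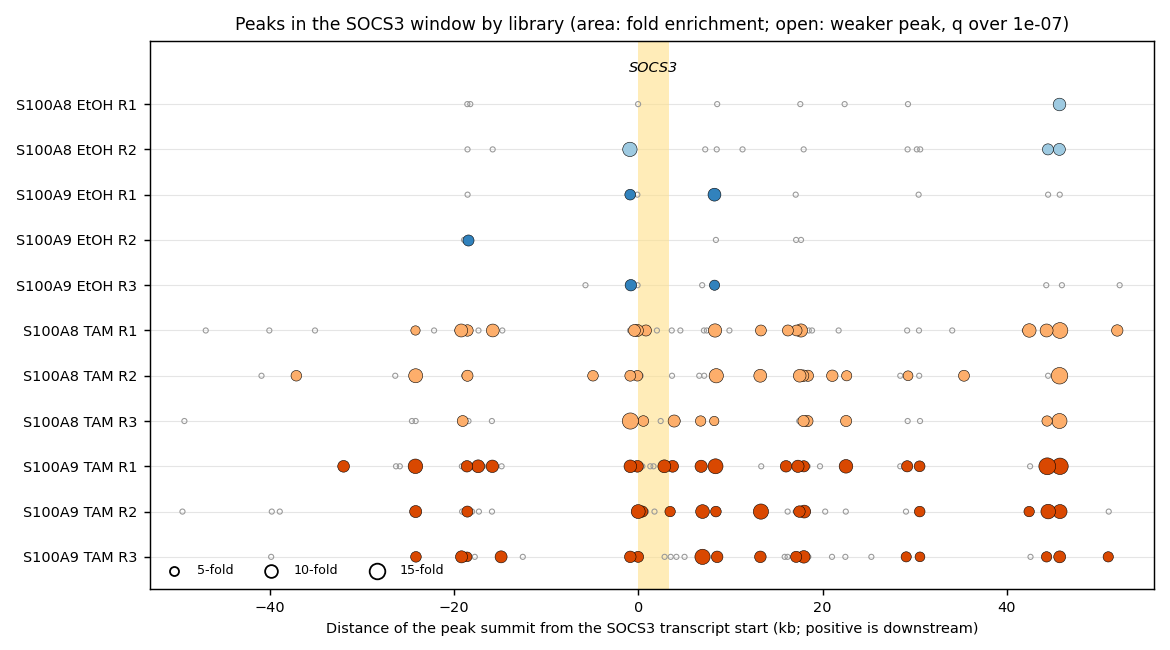
Every deposited peak in the SOCS3 window, by the distance of its summit from the SOCS3 transcript start in kb (x axis) and by library (y axis). Filled circles are peaks with q of 1e-07 or less with an area in proportion to fold enrichment, open circles are weaker peaks, and the shaded band is the gene. The TAM libraries show repeated peaks from the promoter to 45.7 kb downstream, and several of the same positions carry open circles in the EtOH libraries.

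At the SOCS3 promoter itself, a broad site (chr17:76355035-76357258) held 2 kinds of peak. One had its summit 814 to 917 bp upstream of the start and was called in 3 EtOH libraries, at 12.7-fold in S100A8 replicate 2 and at 7.05- and 8.05-fold in S100A9 replicates 1 and 3. It was also called in S100A8 TAM replicates 2 and 3 and in S100A9 TAM replicates 1 and 3, at up to 16.0-fold. The other kind, 16 to 102 bp upstream of the start, was called in 5 TAM libraries and in none of EtOH, where 3 libraries had weaker peaks within 109 bp of the start. A call 424 bp upstream was made in S100A8 TAM replicate 1 alone. The sequence at the first summit is shown with its match to the motif of CTCF in capitals, 8 bp from the summit. That of the outermost downstream site is shown beside it, and it holds none of the motifs searched.
SOCS3 promoter, chr17:76356924-76357124: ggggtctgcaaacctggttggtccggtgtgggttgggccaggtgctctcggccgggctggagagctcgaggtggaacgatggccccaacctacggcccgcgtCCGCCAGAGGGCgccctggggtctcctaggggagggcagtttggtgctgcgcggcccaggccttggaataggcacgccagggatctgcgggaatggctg
SOCS3 downstream site, 45.7 kb, chr17:76310353-76310553: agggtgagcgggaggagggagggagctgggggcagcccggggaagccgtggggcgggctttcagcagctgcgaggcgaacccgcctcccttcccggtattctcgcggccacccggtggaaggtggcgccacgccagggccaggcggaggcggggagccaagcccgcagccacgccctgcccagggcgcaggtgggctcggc

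**Figure D3:**
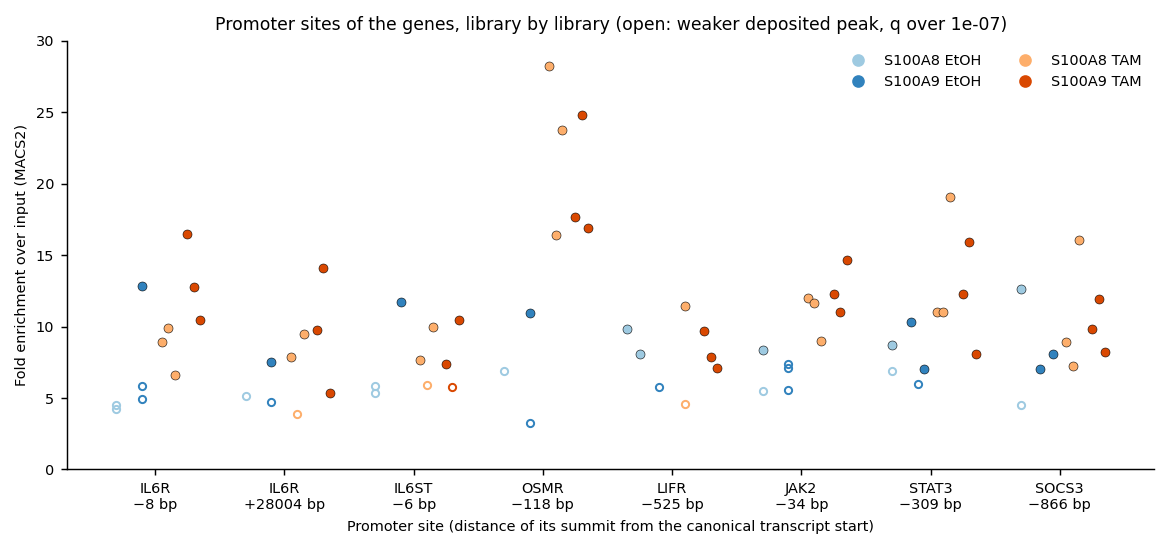
Fold enrichment over input (y axis) of the 8 confident promoter sites, library by library, with the distance of each site's summit from the canonical start under the gene name. Filled points are called peaks, and open points are weaker deposited peaks. OSMR stands highest, at 16.4 to 28.3 in TAM, and LIFR is the promoter with both S100A8 EtOH libraries called.

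Counted by promoter, the 10 genes had calls at 0 to 6 promoters per EtOH library and at 5 to 9 per TAM library. Over all annotated genes, 5.88 to 12% of promoters were called in the EtOH libraries and 32.9 to 48.3% in the TAM libraries. The 10 genes have a median of 5 annotated coding starts and all genes a median of 3, so their promoter windows cover more sequence. OSMR and JAK2 promoters were each called in 1 EtOH and 6 TAM libraries (p = 0.04, exact permutation test), IL6R in 2 and 6, STAT3 and SOCS3 in 3 and 6, and IL6ST in 1 and 4. After adjustment, 0 of the 10 passed, and 2 had an unadjusted p of 0.05 or less, beside 18.4% of the 12099 promoters with a call. The smallest adjusted p of any promoter was 0.216, so that no promoter of any gene passed.

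No difference between S100A8 and S100A9 passed the test at these genes. Mean counts were higher for S100A9 at 9 of the 10 genes, a lean that was not counted over all genes. However, 0 of the 10 reached an unadjusted p of 0.05 in the exact permutation test of the proteins within each treatment. Of all genes, 0.794% reached it, and none passed after adjustment. For the share of library peaks, 0 of the 10 reached it, beside 2.66% of all genes. The mean share was lower for S100A9 at LIFR, STAT3, JAK1, and JAK2, and higher at the others. The effect of TAM differed between the proteins, without adjustment, at LIFR by 2.67 peaks and at STAT3 by 4.17 peaks, larger for S100A9 (p = 0.03 for each, adjusted p = 1.0, exact permutation test). That is 2 of 10 genes beside 2.28% of all genes. At these 2 genes, S100A9 TAM libraries had 4 to 6 and 7 to 11 peaks, and S100A8 TAM libraries 2 to 5 and 4 to 6. S100A9 TAM replicate 3 had the longest list of all, with 40735 peaks, and the part of list length in this difference was not tested beyond the shares, for which the p was 0.04 at LIFR and 0.14 at STAT3 (exact permutation test, unadjusted).

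The 56 confident sites of the 10 windows were 0.185% of the union sites. Of these, 49 were confident in S100A9 TAM (87.5%, beside 82.3% of all union sites) and 35 in S100A8 TAM (62.5%, beside 60.1%). In EtOH, 4 were confident for S100A9 (7.14%, beside 4.54%) and 3 for S100A8 (5.36%, beside 4.01%). Both proteins shared 28 of them in TAM (50%, beside 42.8% of all union sites), 20 were confident in S100A9 TAM alone (35.7%, beside 38.6%), and 7 in S100A8 TAM alone (12.5%, beside 17.1%). No EtOH library was called at 37 sites (66.1%, beside 68.9%), but 17 of these had a weaker peak in at least 1 EtOH list, which left 20 sites (35.7%, beside 34.7%) with no EtOH peak of any strength. By each of these measures, the sites of the pathway genes were close to the union sites as a whole. Between sites, 11 were called in all 6 TAM libraries (19.6%, beside 14.3%): 3 at IL6R, 5 at SOCS3, and 1 each at OSMR, JAK2, and STAT3.

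Most of the sites were distal. Of the 56, 22 lay within the body of the gene and 34 outside it, 8 were at a promoter of the gene itself, and 3 at that of a neighbor. The share at any promoter was 19.6%, beside 31.1% of the union sites. By fold enrichment, the median over sites of the mean percentile in the TAM libraries was 57.5 for the 56 sites and 51.4 for all union sites. Over the 222 single calls in TAM at the 56 sites, the median percentile was 64.8. Only the strongest peak of a site in each library enters this median, which raises it. It was not taken over the calls at all union sites, so it has no background here.

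**Figure D4:**
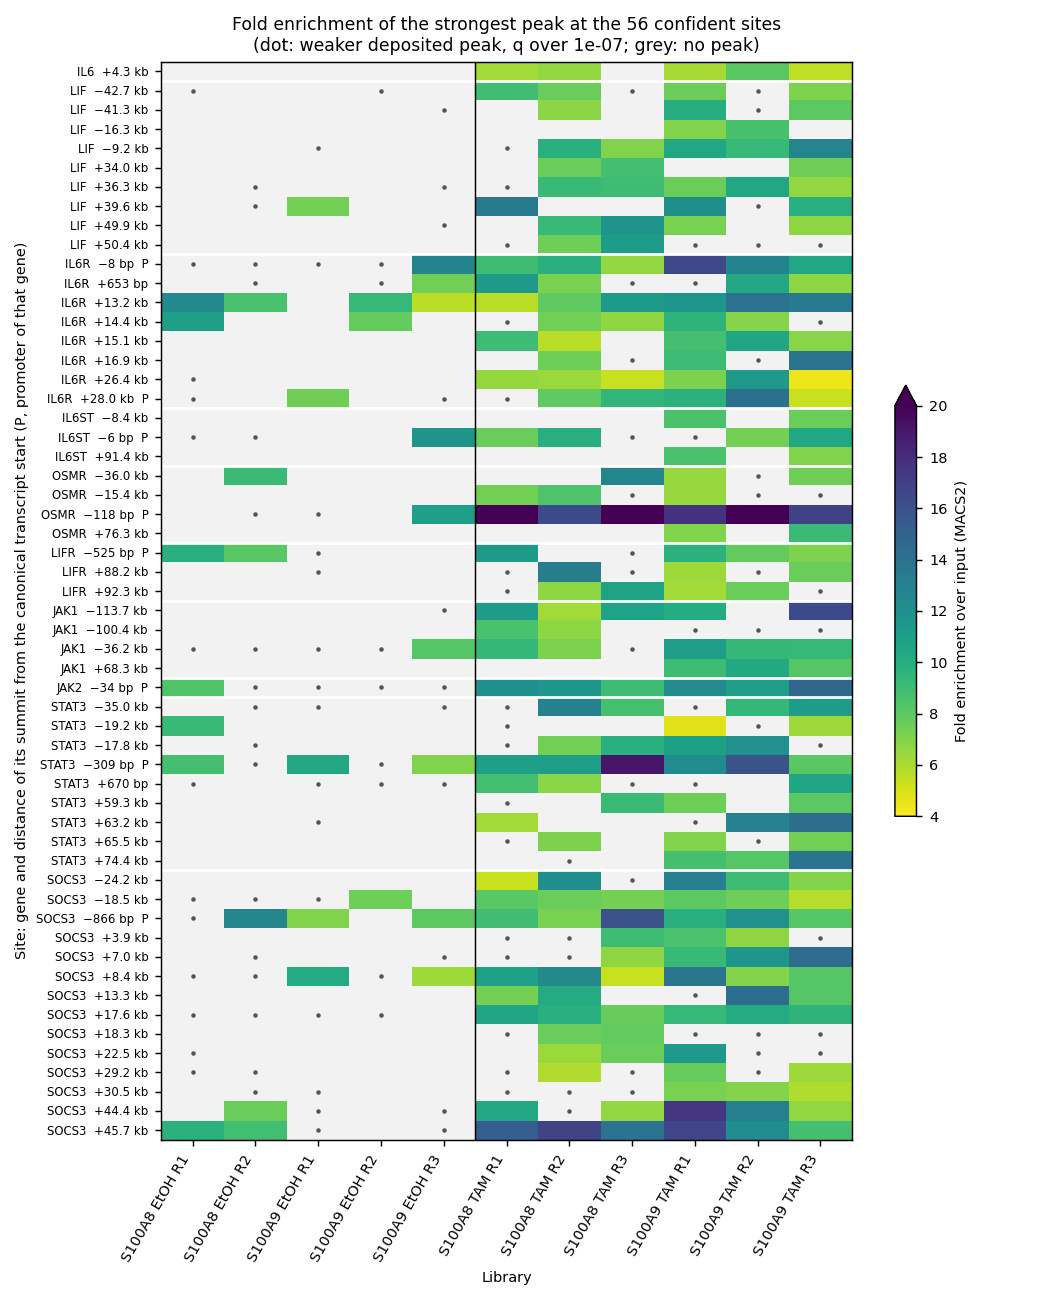
Fold enrichment over input of the strongest peak at each of the 56 confident sites (rows, by gene and distance from the canonical start, with P for a promoter of that gene) in each of the 11 libraries (columns). Dots mark weaker deposited peaks and gray cells have no peak. The OSMR promoter is the darkest row, and the 5 EtOH columns are mostly gray or dotted.

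The motifs searched differed in how often they were present. The AP-1 motif TGACTCA was found within 100 bp of the summit at 19 of the 56 sites (33.9%), beside 25.8% of all union sites and 2.64% of windows of that length at the starts of all 20090 genes. Away from promoters, it was at 17 of 45 sites, beside 34.6% of the distal union sites. The looser C/EBP motif TTNCNNAA was at 26 sites (46.4%, beside 31.0% of union sites and 19.8% of gene starts). At distal sites, C/EBP was at 23 of 45, beside 37.1% of the distal union sites. Within 50 bp of the summit, C/EBP was at 14 of the 56 sites, beside 17% of union sites. AP-1 was also at 14 of the 56 there, beside 19.4%. The ETS motif CGGAAG was at 4 sites (7.14%, beside 13.2% and 18.2%) and the KLF/SP1 motif CCCCGCCC at 3 (5.36%, beside 10.5% and 22.5%). Away from promoters, ETS was at 3 of 45 sites, beside 7% of the distal union sites, and KLF/SP1 at 2, beside 4.2%. CTCF matches were at 4 sites (7.14%, beside 11.1% and 2.44%), and CREB matches at 1 (1.79%, beside 1.18% and 1.86%).

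The motif that STAT proteins bind, TTCNNNGAA, was found at 2 of the 56 sites (3.57%, beside 5.69% of union sites and 4.28% of gene starts). One lay at the site 22.5 kb downstream of SOCS3, 67 bp from the summit, and the other in an intron of STAT3, 94 bp from the summit. The tighter form TTCCNGGAA, which is contained in it, was at 0 sites (beside 1.27% and 0.677%). Within 50 bp of the summit, 0 sites had either form, beside 2.84% and 0.712% of the union sites. All matches were counted on both strands and are descriptions of the sequence.

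Other genes of the pathway also had more peaks in TAM. Of 46 further ligands, receptors, kinases, STATs, inhibitors, and STAT3 target genes, 37 were called higher in TAM (80.4%, beside 65.3% of all genes) and 0 lower by the exact permutation test, and their median difference was 3.42 peaks. By share, 15 of the 46 had an unadjusted p of 0.05 or less, 9 higher and 6 lower, beside 21.9% of all genes. Some windows overlap those above and share peaks with them: OSM lies in the LIF window, IL31RA next to IL6ST, and STAT5A next to STAT3.

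Among ligands, 7 of 9 were called higher, among them CLCF1 (0.4 ± 0.548 to 7.83 ± 3.76 peaks), which encodes a secreted cytokine of the family (SD, n = 5 and 6, here and for the genes that follow). All 4 receptors were called higher, with IL11RA (0.6 ± 0.548 to 5.33 ± 2.73) and IL27RA (1.0 ± 0.707 to 4.5 ± 1.87), the chains for IL11 and IL27, at the top. Both further kinases were called, TYK2 (0.4 ± 0.548 to 5.5 ± 1.38) and JAK3 (0.2 ± 0.447 to 5.0 ± 1.26). Of the other STATs, 5 of 6 were called, led by STAT6 (1.4 ± 1.14 to 10 ± 3.90) and STAT4 (1.2 ± 0.837 to 6.0 ± 2.76).

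The inhibitors were called higher at 10 of 15, led by the SUMO ligase PIAS4 (1.2 ± 0.447 to 9.33 ± 2.34) and the phosphatase PTPN6 (1.4 ± 0.548 to 8.67 ± 1.63). STAT3 target genes were called at 9 of 10. The antiapoptotic gene MCL1 rose from 3.6 ± 1.14 to 17.2 ± 3.71 peaks, at percentile 99.9 of TAM density, and the AP-1 subunit gene JUNB rose from 3.6 ± 1.14 to 13.3 ± 4.32. By share of the library peaks, the differences between TAM and EtOH were −3.32 per 10000 at MCL1 (p = 0.01, the smallest possible) and −5.33 per 10000 at JUNB (p = 0.03), both unadjusted p values of the exact permutation test.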

How the data were processed

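S100A8-Flag and S100A9-Flag ChIP-seq was performed in MCF10A ER-Src cells, and 11 narrow-peak lists were analysed (2, 3, 3, and 3 libraries per group, grouped by the labels). The authors aligned reads to hg19 with Bowtie2 and called peaks with MACS2 in each library against its own input (versions not given in the sources used here). The deposited lists give fold enrichment over input as a ratio, −log10 p and −log10 q values, a score that restates the q value, and the summit. They reach q values far weaker than 1e-07, the authors' threshold, which was applied here. The authors' further minimum of 5 raw reads could not be applied, since the lists hold no reads; read depth is unknown, and no counting interval is given. Pol II and input libraries were not analysed here, and no library from untagged cells was used.

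Peaks were assigned by summit to gene windows and promoters with the GENCODE 44 annotation on GRCh37, autosomes and X. Treatment labels were permuted within each protein (200 arrangements, smallest two-sided p of 0.01), with Benjamini-Hochberg adjustment over all genes and a threshold of 0.05. Proteins were permuted within each treatment. These p values measure the spread between replicates of 1 line per protein. Peaks of the 4 conditions that overlapped by 1 bp were merged into union sites. Sequences were read from GRCh37. TAM and EtOH libraries of the same replicate number were compared by their deviations in window share (correlations of −0.0444 to 0.0412 over 5 pairs). The EtOH shares are coarse, so these correlations cannot show whether the libraries were paired. The main test used no pairing. Python 3.11.15, numpy 2.4.6, pandas 2.3.3, and matplotlib 3.10.9 were used. The permutation of treatments was checked on simulated window shares and on simulated window counts. The simulated counts had lists of equal length, unlike the real lists, so the count test was not checked at the real list lengths. The other tests were not simulated. Shares of short lists spread more than those of long lists, so unadjusted p values of the share test may be too low.

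The genes and the pathway list were chosen with earlier results of these data known. Named sites were each gene's promoter sites and the 2 others called in most libraries, and named pathway genes were the 2 of each role with the most TAM peaks. One such gene and one site are not reported here. The SOCS3 site at 17.6 kb, the IL6R site at 28.0 kb where it is shown as sequence, the LIF site at 39.6 kb, and the sites with a STAT motif were named after their values were seen. Alternatives were other q thresholds, windows, promoter definitions, list lengths, merging rules, and each library left out.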

Additional observations from a re-analysis of the deposited data

How the results depend on the processing

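The 8 genes called higher in TAM by number of peaks became 9 with every deposited peak and 8 with merged peaks. They became 5 with a −log10 q of at least 10, 3 with the gene body and 10 kb, 0 with the gene body alone, where 0 of 13968 genes passed the adjustment, and 0 with the same number of top peaks in each library. Leaving out 1 library gave 0 to 6 called genes: 0 without S100A8 EtOH replicate 1 or 2 (80 arrangements, smallest p of 0.025), 6 without S100A9 TAM replicate 2, and 4 or 5 without any other. With the replicate block, which pairs libraries by number, 0 were called, since 32 arrangements allow no p below 0.0625. With top peaks, differences turned to −0.333 at IL6ST, −0.25 at LIFR, and −0.0833 at JAK1, and with the gene body alone to −0.167 at LIF. The cause was not tested. The counts of 0 for shares, proteins, and promoters were 0 under each alternative run. The 56 sites became 25 when called in every replicate, 117 in at least 1, 57 with summits within 100 bp, and 42 to 56 with 1 library left out. With 50 bp around summits, AP-1 was at 14 sites, C/EBP fell from 26 to 14, ETS and CTCF each from 4 to 2, STAT from 2 to 0, and CREB from 1 to 0, and KLF/SP1 was at 3. By q value, the median percentile of the TAM calls was 66.3 in place of 64.8. Unknown read depth limits every comparison of numbers of peaks.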
